A study of Mus musculus with 21 samples.

Results

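The cystatin family was followed after loss of cystatin B (Cstb) in mouse cerebellum and cerebellar granule cells. The members were 7 genes taken by symbol: Cstb itself and Cst3, Cst6, Cst7, Cst8, Cst9 and Cst10. Every probe set (a group of short probes on the array that together report 1 transcript) annotated to one of these symbols alone was used, whatever its values. This gave 7 probe sets of 45037 tested: 2 for Cstb and 1 each for Cst3, Cst6, Cst7, Cst9 and Cst10. They covered 6 of the 7 genes, beside 18193 genes with a probe set of their own on the array, and no probe set carried the symbol Cst8 alone.

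RNA was measured on Affymetrix mouse arrays in 3 experiments, with 10 Cstb-/- and 11 wild type arrays. Whole cerebella came from pre-symptomatic mice at postnatal day 7 (P7, 4 arrays per genotype) and from mice at P30 (3 arrays per genotype). Granule cell cultures were made from cerebella of P5 pups freed of meninges and were harvested after 2 days in vitro (3 Cstb-/- and 4 wild type arrays), with the anti-mitotic agent AraC added to hold back glia. All mice were on the 129SvJ background, the Cstb-/- mice carried the targeted Cstb tm1Rm allele in every cell, and the wild type mice were described as littermates. Cerebellar arrays are of bulk tissue, in which a change in the number of cells of a type and a change in RNA per cell cannot be told apart. The deposited values are log2 signals from which the median of each probe set within an experiment had been subtracted, so levels were not kept: neither 2 genes nor 2 experiments can be compared in level, and the tissue could not be checked by whether its markers were present. All values below are log2 differences from the wild type mean of the same experiment. Genotypes were compared by limma with Benjamini-Hochberg correction over all probe sets. A change was called where the fold was at least 1.3 (0.38 on the log2 scale) and the adjusted p below 0.05 for cerebella or below 0.01 for cultures. A difference between experiments was called at the same fold and an adjusted p below 0.05, also where it involved the cultures.

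Cystatins inhibit papain-like cysteine proteases, chiefly the cathepsins of lysosomes, by blocking the active site cleft. Cystatin B is a stefin, a small cystatin without a signal peptide that acts in the cytosol and nucleus, and its loss in humans causes Unverricht-Lundborg disease (EPM1), a progressive myoclonus epilepsy. The other members are secreted-type cystatins. Cystatin C (Cst3) is abundant in cerebrospinal fluid and is made by choroid plexus and astrocytes among other cells. Cystatin F (Cst7) is made mainly by immune cells and acts inside lysosomes, where cathepsin C is one of its targets. Cystatin E/M (Cst6) is best known from skin, Cst8 and Cst9 from the male reproductive tract, and Cst10 from cartilage.

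In the RefSeq gene table, Cst3, Cst8, Cst9 and Cst10 lay in an unbroken run of cystatin-type genes on chromosome 2, with Cst3 between Cstdc2 and Cst10. Cst7 lay apart on the same chromosome between Zfp345 and Apmap. Cstb was on chromosome 10 between Rrp1 and Pdxk, and Cst6 on chromosome 19 between Catsper1 and Banf1. For Cst3 and Cst7, the members beside Cstb with the largest genotype differences, the 250 bases before the gene start are shown from RefSeq (GRCm38.p6), 5′ to 3′ on the strand of the gene, at chr2:148875513-148875762 on the minus strand and chr2:150570165-150570414 on the plus strand. Capitals mark a GC box, which occurred once in the Cst3 window.
Cst3: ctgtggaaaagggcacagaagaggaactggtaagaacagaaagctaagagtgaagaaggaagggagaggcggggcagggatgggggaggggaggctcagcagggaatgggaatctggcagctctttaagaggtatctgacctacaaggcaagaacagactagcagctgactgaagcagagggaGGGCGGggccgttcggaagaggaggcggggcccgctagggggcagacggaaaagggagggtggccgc
Cst7: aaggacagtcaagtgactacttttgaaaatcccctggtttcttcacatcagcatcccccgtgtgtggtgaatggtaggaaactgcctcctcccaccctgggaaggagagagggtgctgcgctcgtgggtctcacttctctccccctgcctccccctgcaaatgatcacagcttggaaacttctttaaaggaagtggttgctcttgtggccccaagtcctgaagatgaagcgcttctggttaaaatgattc
The 4 motifs searched on both strands were the following, none of which contains another: the GC box GGGCGG, the TATA box TATAAA, the PU.1 site GAGGAAGT and the E-box CACGTG. They were found in 32.7%, 12.4%, 2.44% and 6.02% of 32841 RefSeq windows of this length. The Cst3 window held 59.6% G and C bases and 8 CG dinucleotides, and the Cst7 window 51.6% and 4, beside medians of 52.4% and 6 over all windows.

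Some arrays stood apart before any cystatin was read. At P7, Cstb-/- array 5 had a mean of 3.39 over the 18S control probe sets, against -0.40 to 0.64 on the other arrays. Labelled sex went partly with genotype at P7, where 3 of 4 Cstb-/- arrays and 1 of 4 wild type arrays were labelled male. At P30, Cstb-/- array 1 was labelled female, but Xist and Eif2s3y did not set it apart from the male arrays. The methods describe every mouse arrayed at P30 as male. In the cultures these sex genes went against the labelled sex on Cstb-/- arrays 1 and 2 and were intermediate on wild type arrays 7 and 8. Of all probe sets in the cultures, 49.9% held the exact value 0 on 2 or more arrays, against 0.810% at P7 and 0.842% at P30. Among the members in the cultures, Cst7 had 3 of 7 arrays at exactly 0, and Cst6, Cst9 and Cst10 had 2 of 7. In these 4 members part of the spread between culture arrays was therefore not resolved.

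Cstb was lower on all 10 Cstb-/- arrays than on any wild type array of its experiment, with both probe sets. At P7 the probe set 1422506_a_at lay at -2.72, -3.01, -3.10 and -3.57 on Cstb-/- arrays 1, 2, 3 and 5, and at 0.01, -0.21, 0.11 and 0.10 on wild type arrays 1 to 4. The probe set 1422507_at lay at -2.31, -2.25, -2.21 and -2.45 on the same Cstb-/- arrays and at 0.07, -0.11, 0.12 and -0.08 on the wild type arrays. The genotypes were far apart with both, and the Cstb-/- arrays were spread wider with the first. At P7 the signal of 1422506_a_at fell by 3.10 (SE 0.15, limma adjusted p = 8.99e-06), to 11.6% of wild type, and that of 1422507_at fell by 2.31 (SE 0.08, adjusted p = 4.71e-07), to 20.2%. Without array 5 the falls were still called, at -2.95 and -2.26, and the other P7 members kept their sign and were not called, at 0.26 for Cst6, 0.12 for Cst7, -0.20 for Cst9 and 0.03 for Cst10.

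At P30 the probe set 1422506_a_at lay at -2.70, -2.69 and -2.70 on the Cstb-/- arrays and at 0.02, -0.04 and 0.02 on the wild type arrays. The probe set 1422507_at lay at -2.68, -2.82 and -2.80 against -0.06, -0.11 and 0.17. The arrays of each genotype were close together here. By limma the first fell by 2.70 (SE 0.07, adjusted p = 6.94e-07), to 15.4% of wild type, and the second fell by 2.77 (SE 0.09, adjusted p = 4.85e-06), to 14.7%. In the cultures 1422506_a_at lay at -2.03, -2.22 and -2.00 on Cstb-/- arrays 1 to 3 and at 0.10, 0.03, -0.14 and 0.01 on wild type arrays 4, 5, 7 and 8. The probe set 1422507_at lay at -1.77, -2.01 and -1.80 against 0.13, -0.06, 0.00 and -0.07. The separation was again complete, at a smaller distance. The first fell by 2.08 (SE 0.09, limma adjusted p = 2.86e-05), to 23.6% of wild type, and the second fell by 1.86 (SE 0.09, adjusted p = 4.33e-05), to 27.6%. Thus 2 of 7 member probe sets, both of Cstb, were called in each experiment, where 0.00666% of all probe sets were called at P7, 0.144% at P30 and 2.54% in the cultures. Where the probe sets lie relative to the altered part of the gene is not given in the sources used here, and a residual signal on an array includes background binding, which these values do not separate.

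**Figure D1:**
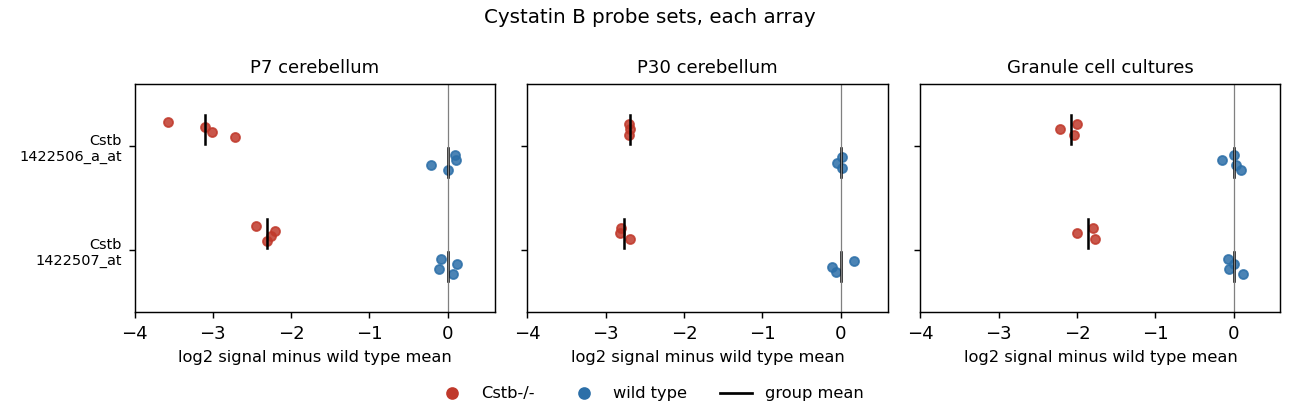
Each point is 1 array, with the log2 signal of a Cstb probe set minus the wild type mean on the horizontal axis, for P7 cerebella, P30 cerebella and granule cell cultures, and black bars are group means. The Cstb-/- arrays lie between -3.57 and -2.21 at P7, between -2.82 and -2.68 at P30 and between -2.22 and -1.77 in the cultures, all below the wild type arrays.

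At P7 the fall of Cstb was larger with 1422506_a_at than with 1422507_at on each Cstb-/- array, a difference that missed 0.05 after adjustment over the experiments. On each array, the difference of 1422506_a_at minus 1422507_at was taken, relative to its wild type mean. At P7 it was -0.41, -0.76, -0.89 and -1.12 on Cstb-/- arrays 1, 2, 3 and 5, against -0.06, -0.10, -0.01 and 0.18 on the wild type arrays. The genotypes did not overlap, with a mean of -0.80 ± 0.30 (SD) against 0 ± 0.12. The exact two-sided permutation test gave p = 0.0286, the smallest that 4 against 4 arrays allow, and 0.0857 after adjustment over the 3 experiments. In the cultures the mean difference was -0.22 (exact two-sided permutation p = 0.0571, the smallest possible there, adjusted p = 0.0857), and at P30 it was 0.07 (exact p = 0.5, where 0.1 is the smallest possible).

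The fall of Cstb was smaller in the cultures than at P7 with both probe sets. The difference between the log2 falls, fitted over all 21 arrays, was 1.02 (SE 0.18, limma adjusted p = 4.44e-04) for 1422506_a_at and 0.45 (SE 0.12, adjusted p = 0.0128) for 1422507_at. These were 2 of 7 member probe sets, where 18.7% of all probe sets were called for this difference. Between the cultures and P30, where 5.04% of all probe sets were called, it was 0.91 (SE 0.13, adjusted p = 1.32e-04) for 1422507_at, and 0.61 (SE 0.19, adjusted p = 0.0659) for 1422506_a_at, which missed the threshold. Between P30 and P7 no member probe set was called for the difference, beside 0.124% of all probe sets. The Cstb probe sets pointed in opposite directions there, at 0.41 (95% interval 0.03 to 0.79, adjusted p = 0.616) for 1422506_a_at and -0.46 (-0.72 to -0.20, adjusted p = 0.264) for 1422507_at. Each experiment had been centred apart, and a difference in background binding between experiments was not tested.

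None of the 5 other members was called in any experiment. Their largest log2 differences were 0.23 at P7 (Cst6), 0.42 at P30 (Cst7) and 0.44 in the cultures (Cst3), against a fold threshold of 0.38. The 95% intervals reached no further than a fold of 0.782 to 1.36 at P7, 0.808 to 1.52 at P30 and 0.755 to 1.60 in the cultures. At an unadjusted p under 0.05 there were 3 of 5 probe sets at P7 (Cst3, Cst6 and Cst9), 2 of 5 at P30 (Cst3 and Cst7) and 1 of 5 in the cultures (Cst3), beside 9.45%, 7.72% and 31.6% of all probe sets. The genotypes did not overlap for 1 of 5 at P7 (Cst7), 2 of 5 at P30 (Cst3 and Cst7) and 1 of 5 in the cultures (Cst3), beside 5.65%, 12.5% and 22.8% of all probe sets. The median difference of the 5 was 0.11, 0.09 and -0.08, and that of all probe sets was 0.01, -0.01 and -0.02.

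Cst3, the cystatin of cerebrospinal fluid, was above the wild type mean on 9 of 10 Cstb-/- arrays over the 3 experiments, without a call in any of them. At P7 its probe set lay at 0.24, 0.21, 0.45 and -0.01 on Cstb-/- arrays 1, 2, 3 and 5, and at 0.13, -0.07, -0.12 and 0.05 on the wild type arrays. Array 5, the one with the high 18S controls, lay inside the wild type range, so the genotypes overlapped. The difference was 0.22 (SE 0.10, 95% interval 0.00 to 0.44, limma adjusted p = 0.525), and 0.30 without array 5 (adjusted p = 0.490). At P30 it lay at 0.24, 0.28 and 0.35 against -0.02, -0.03 and 0.04. Every Cstb-/- array was above every wild type array, and the difference was 0.29 (SE 0.07, 0.13 to 0.45, unadjusted p = 0.00240, adjusted p = 0.326 by limma). In the cultures it lay at 0.63, 0.33 and 0.35 against 0.19, -0.04, -0.09 and -0.06. The genotypes were apart here too, with wild type array 4 nearest to the Cstb-/- arrays. The difference was 0.44 (SE 0.11, 0.20 to 0.68), a fold of 1.36 at an adjusted p of 0.0376 by limma, which missed the threshold of 0.01 set for the cultures. With 1 fit over all 21 arrays the adjusted p of the same difference was 0.00287, which passed it. That fit called 5725 of 45037 probe sets in the cultures, against 1144 in the main fit.

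Cst7, the cystatin of immune cells, was set apart by genotype most clearly at P30. There it lay at 0.45, 0.28 and 0.53 on the Cstb-/- arrays and at -0.03, 0.04 and -0.01 on the wild type arrays. The groups did not overlap, and the wild type arrays were the closer together. The difference was 0.42 (SE 0.08, 95% interval 0.23 to 0.61), a fold of 1.34, with an unadjusted p of 6.49e-04 and an adjusted p of 0.174 by limma. It passed the threshold with array weights (0.41, adjusted p = 0.0491), and not in the fit without weights. Array weights called 226 of all probe sets at P30, against 65 without them. At P7 the values were 0.15, 0.11, 0.11 and 0.06 on the Cstb-/- arrays and -0.01, 0.06, 0.00 and -0.05 on the wild type arrays. The lowest Cstb-/- array lay at 0.063 and the highest wild type array at 0.062, so the groups were barely apart, and the difference was 0.11 (SE 0.06, -0.03 to 0.24, adjusted p = 0.608 by limma). In the cultures the values were -0.06, -0.09 and -0.15 against -0.19, -0.09, -0.09 and 0.37. Wild type array 8 lay far above the other arrays, and the difference was -0.10 (SE 0.13, -0.41 to 0.20, adjusted p = 0.604 by limma). Without that array it was 0.02.

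**Figure D2:**
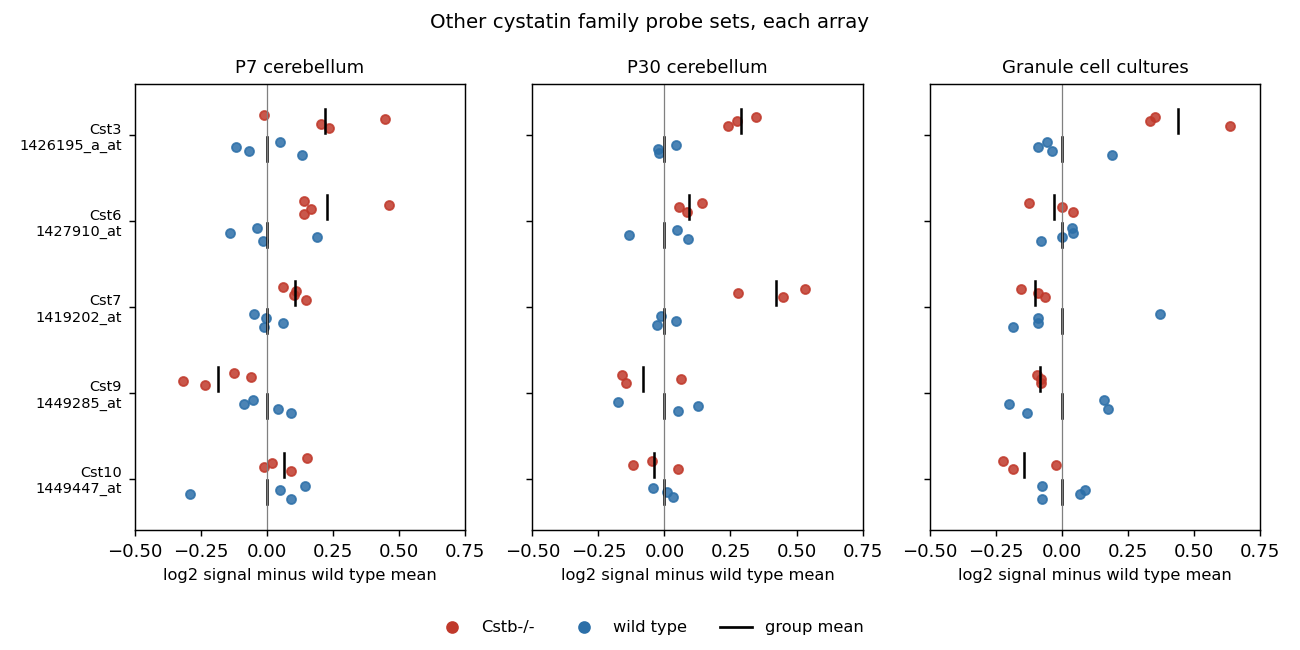
Each point is 1 array, with the log2 signal of each cystatin probe set beside Cstb minus its wild type mean on the horizontal axis, and black bars are group means. The Cstb-/- arrays lie clear of the wild type arrays for Cst3 at P30 (0.24 to 0.35) and in the cultures (0.33 to 0.63) and for Cst7 at P30 (0.28 to 0.53).

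Cst6, Cst9 and Cst10 differed by 0.23 or less between genotypes in every experiment. For Cst6, cystatin E/M, the P7 values were 0.14, 0.17, 0.46 and 0.14 on Cstb-/- arrays 1, 2, 3 and 5, against -0.01, 0.19, -0.14 and -0.04. Array 3 stood above the rest, wild type array 2 overlapped the Cstb-/- arrays, and the difference was 0.23 (SE 0.10, 95% interval 0.02 to 0.44, limma adjusted p = 0.510). At P30 Cst6 differed by 0.09 (-0.09 to 0.28, adjusted p = 0.818) and in the cultures by -0.03 (-0.20 to 0.14, adjusted p = 0.807), with overlap in both. For Cst9, known from testis, the P7 values were -0.23, -0.32, -0.06 and -0.13 against 0.09, 0.04, -0.08 and -0.05. Array 3 lay among the wild type arrays, and the difference was -0.18 (SE 0.08, -0.35 to -0.01, adjusted p = 0.515). Cst9 differed by -0.08 both at P30 (-0.31 to 0.15) and in the cultures (-0.33 to 0.16), with overlap. Cst10, known from cartilage, differed by 0.06 at P7 (-0.15 to 0.28), by -0.04 at P30 (-0.21 to 0.13) and by -0.14 in the cultures (-0.34 to 0.05), with limma adjusted p of 0.852, 0.928 and 0.264. Its genotypes overlapped in all 3 experiments.

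**Figure D3:**
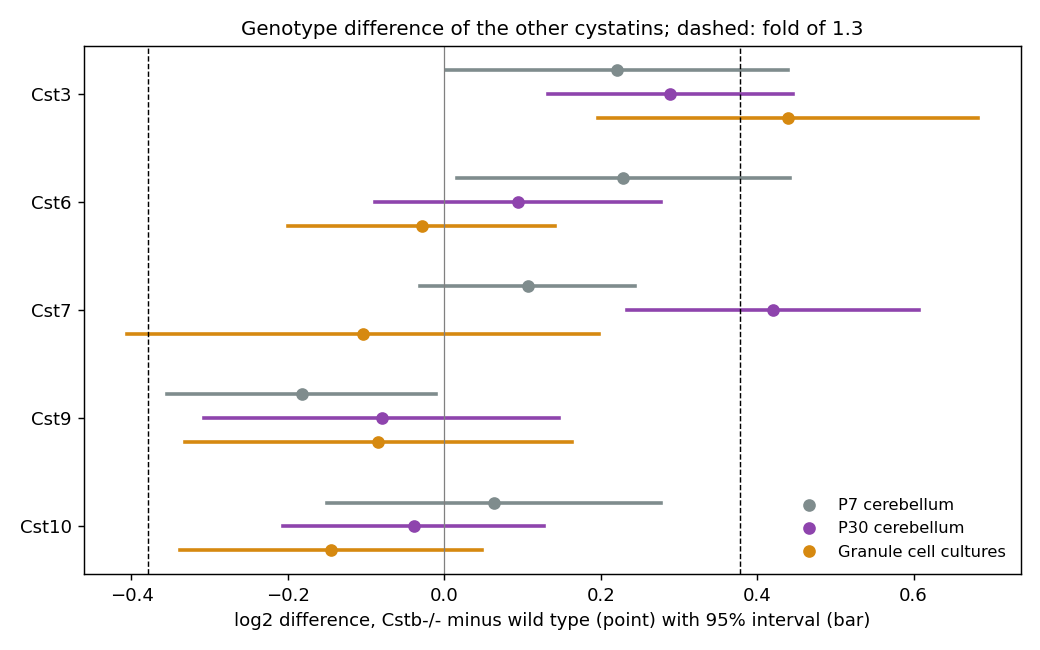
Points are log2 differences of Cstb-/- minus wild type and bars their 95% intervals for the 5 cystatin genes beside Cstb in each experiment, with dashed lines at a fold of 1.3 in either direction (0.38 on the log2 scale). Cst7 at P30 (0.42) and Cst3 in the cultures (0.44) are the points past a dashed line, and the interval of each reaches back inside it.

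Among these 5 members, 1 was called for a difference between experiments. This was between the cultures and P30, where 5.04% of all probe sets were called. The genotype difference of Cst7 was lower in the cultures than at P30 by 0.52 (SE 0.14, 95% interval -0.82 to -0.23, limma adjusted p = 0.0349). This call was lost, at adjusted p between 0.0523 and 0.0945, on leaving out P30 Cstb-/- array 1 or 3, any 1 of the 3 P30 wild type arrays, or culture Cstb-/- array 1 or 3. Between P30 and P7 the difference of Cst7 was 0.31 (0.03 to 0.60, adjusted p = 0.608). For Cst3 the genotype differences were 0.07 apart between P30 and P7 (-0.23 to 0.36), 0.22 between the cultures and P7 (-0.07 to 0.50) and 0.15 between the cultures and P30 (-0.15 to 0.46), none of them called by limma.

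Beyond the members, 18 of 28 other genes of the cystatin superfamily or related inhibitors had a probe set. None was called at P7 or P30, where 0.0055% and 0.192% of 18193 genes were called, and 1 was called in the cultures, where 2.78% were. At P7, 16 of the 18 were higher in Cstb-/- and 2 lower, with a median of 0.04 (0.01 over all genes), and 3 had an unadjusted p under 0.05. The 3 were the kininogen Kng1 (0.21), the cathelicidin Camp (0.19) and Cst14 (0.22), each short of the fold. At P30, 13 were higher and 5 lower with a median of 0.04, and 5 had an unadjusted p under 0.05. The inhibitors Ctla2a (0.48) and Ctla2b (0.36), which resemble the propeptides of cathepsins, and latexin (Lxn, 0.41) were among them, with adjusted p of 0.474, 0.365 and 0.479. In the cultures 2 were higher and 16 lower with a median of -0.09, and the call was Lxn, an inhibitor of carboxypeptidases. Lxn lay between 0.58 and 0.87 on the Cstb-/- arrays and between -0.14 and 0.19 on the wild type arrays, without overlap. It rose by 0.76 (SE 0.11, limma adjusted p = 0.00608), a call that was lost, at adjusted p up to 0.0341, without any 1 of Cstb-/- arrays 1 and 3 and wild type arrays 5, 7 and 8. With the methods' t-test its adjusted p was 0.0582 over all probe sets and 0.0123 when corrected over probe sets past the fold alone.

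The cysteine proteases that cystatins bind were read beside them: 10 cathepsins and legumain, 11 genes in all. At P30, 9 of 11 were higher in Cstb-/- and 3 rose by the test, with a median of 0.21 against 0.00 over all genes. Cathepsin H (Ctsh), an aminopeptidase, lay between 0.73 and 0.85 on the Cstb-/- arrays and between -0.06 and 0.09 on the wild type arrays, and rose by 0.80 (SE 0.07, limma adjusted p = 0.00362). Cathepsin S (Ctss), which processes antigens in immune cells, lay between 1.06 and 1.68 against -0.15 to 0.12 and rose by 1.32 (SE 0.15, adjusted p = 0.0136). Cathepsin C (Ctsc), a dipeptidyl peptidase inhibited by cystatin F, lay between 1.22 and 1.5 against -0.31 to 0.48 and rose by 1.34 (SE 0.18, adjusted p = 0.0370). The genotypes did not overlap for these 3 genes. The number of calls was between 1 and 3 with 1 array left out: Ctsh passed each time, Ctsc missed without any of the 3 Cstb-/- arrays or wild type array 1 or 2, and Ctss missed without Cstb-/- array 1 or wild type array 1 or 2. With the replicate number as a block, Ctsc had an adjusted p of 0.0581. With the methods' t-test over all probe sets, all 3 calls were lost, at adjusted p of 0.257 for Ctsh, 0.580 for Ctss and 0.623 for Ctsc. With that t-test corrected over probe sets past the fold alone, all 3 were kept. The authors had reported Ctsh as raised at P30, so its call is not independent of that report.

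At P7, 5 of the 11 were higher and 6 lower, with a median of -0.02 and no call in the main fit. With labelled sex as a covariate 1 was called at P7, as with the methods' t-test corrected over probe sets past the fold. Ctsc lay between -0.49 and -0.22 there on the Cstb-/- arrays, below the wild type arrays at -0.14 to 0.19, with a difference of -0.39 (SE 0.09, limma adjusted p = 0.292). In the cultures, 7 were higher and 4 lower with a median of 0.28, and Ctsh was called. It lay between 0.59 and 0.93 against -0.11 to 0.05 and rose by 0.80 (SE 0.10, adjusted p = 0.00306), a call that was lost, at adjusted p up to 0.0207, without Cstb-/- array 3 or wild type array 5, 7 or 8, and with the methods' t-test over all probe sets (0.0397). With that t-test corrected over probe sets past the fold, the call of Ctsh was kept. Ctsc differed by 0.52 (adjusted p = 0.0218) and Ctss by -0.35 (adjusted p = 0.0449) in the cultures, both short of the threshold of 0.01. Of the 4 aspartic and serine cathepsins, which cystatins do not inhibit, none was called in any experiment. At P30 their number of calls became 1 without Cstb-/- array 2, with array weights, in 1 fit over all 21 arrays and with the methods' t-test corrected over probe sets past the fold, and in the cultures 1 without that experiment's Cstb-/- array 2. At P30 the aspartic protease cathepsin D (Ctsd) differed by 0.43 (adjusted p = 0.0978) and cathepsin E (Ctse) by 1.24 (adjusted p = 0.121). The authors had reported Ctsd as raised at P30.

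Markers of cell types that make cystatins were read beside the members in the same experiments. At P30, 13 of 14 measured microglial markers were higher in Cstb-/- and 8 rose by the test, with a median of 0.95. The mean of the 14 was 1.04, 0.97 and 1.14 on Cstb-/- arrays 1, 2 and 3, and between -0.12 and 0.12 on the wild type arrays. Tyrobp, the adaptor of microglial receptors, rose by 2.20, and the complement genes C1qc, C1qa and C1qb by 1.76, 1.83 and 2.06 (limma adjusted p of 2.06e-05, 4.27e-05, 3.38e-04 and 0.00111). Of 13 measured markers of disease-associated microglia, 11 were higher and 6 were called, with a median of 1.11, among them the lipase Lpl (1.96), Cd52 (2.08), B2m (1.21) and the receptor Clec7a (1.90). From both lists, the authors had reported C1qa, C1qb, C1qc, Fcer1g, Cd68, Cd52, B2m and Ccl6 as raised at P30. These counts are not independent of that report. With 1 array left out, 6 to 8 of the first list and 5 to 7 of the second were called, and with the methods' t-test over all probe sets 0 of both. With that t-test corrected over probe sets past the fold alone, 9 and 8 were called, among them all 8 and 6 called by limma. At P7 no marker of either list was called, with medians of 0.06 and 0.03. In the cultures, 4 of 14 microglial markers were higher, with a median of -0.12 and no call. Of the 13 markers of disease-associated microglia, 10 were higher there, with a median of 0.15, and the receptor kinase Axl was called (0.96, limma adjusted p = 0.00981). Axl missed the threshold in 10 of 14 alternatives, among them leaving out any 1 of the culture arrays except wild type array 4. The part of microglia in the difference of Cst7 was not tested.

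Astrocyte markers are given beside Cst3. All 10 were higher in Cstb-/- at P30, with a median of 0.27, and Gfap, the filament protein of reactive astrocytes, was the 1 called, at 2.15 (SE 0.09, limma adjusted p = 1.44e-05, but 0.141 with the methods' t-test over all probe sets). With that t-test corrected over probe sets past the fold, Gfap was called. The authors had also reported Gfap as raised. In the cultures 8 of 10 astrocyte markers were higher with a median of 0.35, and the gap junction gene Gja1 (1.67, adjusted p = 0.00361) and the folate enzyme Aldh1l1 (0.76, adjusted p = 0.00277) were called. Both calls were lost without Cstb-/- array 1 or 3 or wild type array 5, 7 or 8 (adjusted p up to 0.0247), and with the methods' t-test over all probe sets. With that t-test corrected over probe sets past the fold, Aldh1l1 was kept and Gja1 missed (adjusted p = 0.0124). The mean of the 10 was between 0.37 and 0.55 on the Cstb-/- culture arrays and 0.20, -0.07, -0.09 and -0.04 on wild type arrays 4, 5, 7 and 8. At P7, 5 of 10 astrocyte markers were higher, with a median of 0.03 and no call in the main fit. With the methods' t-test corrected over probe sets past the fold, 1 was called.

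Choroid plexus, another source of Cst3, and meningeal cells also differed between arrays. All 8 measured choroid plexus markers were lower in Cstb-/- at P7, with a median of -1.36 and none called in the main fit. There were 5 calls without Cstb-/- array 1 and 3 with labelled sex as a covariate. With the methods' t-test corrected over probe sets past the fold, 4 were called. The mean of the 8 was -0.32, -1.77, -2.33 and -2.04 on Cstb-/- arrays 1, 2, 3 and 5 and between -0.32 and 0.20 on the wild type arrays. At P30 it was -2.12, 0.84 and -2.02 on the Cstb-/- arrays and between -0.79 and 0.86 on the wild type arrays, with none called, and 2 called without Cstb-/- array 2. In the cultures, 6 of 8 markers of fibroblasts and meninges were higher and 5 rose by the test, with the collagen genes Col1a1 and Col1a2 at 3.59 and 3.41, and their mean was between 1.58 and 1.77 on the Cstb-/- arrays and between -0.06 and 0.08 on the wild type arrays. With any 1 array left out 4 were called, and with the methods' t-test over all probe sets 1. With that t-test corrected over probe sets past the fold, 4 were called. From this list, the authors had reported Col1a2, Col3a1 and Lum as raised in the cultures, so these counts are not independent of that report. At P7 all 8 were lower, with a median of -0.23, a mean between -0.28 and -0.14 on the Cstb-/- arrays and between -0.03 and 0.04 on the wild type arrays, and no call. The part of these cells in the values of Cst3 was not tested.

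**Figure D4:**
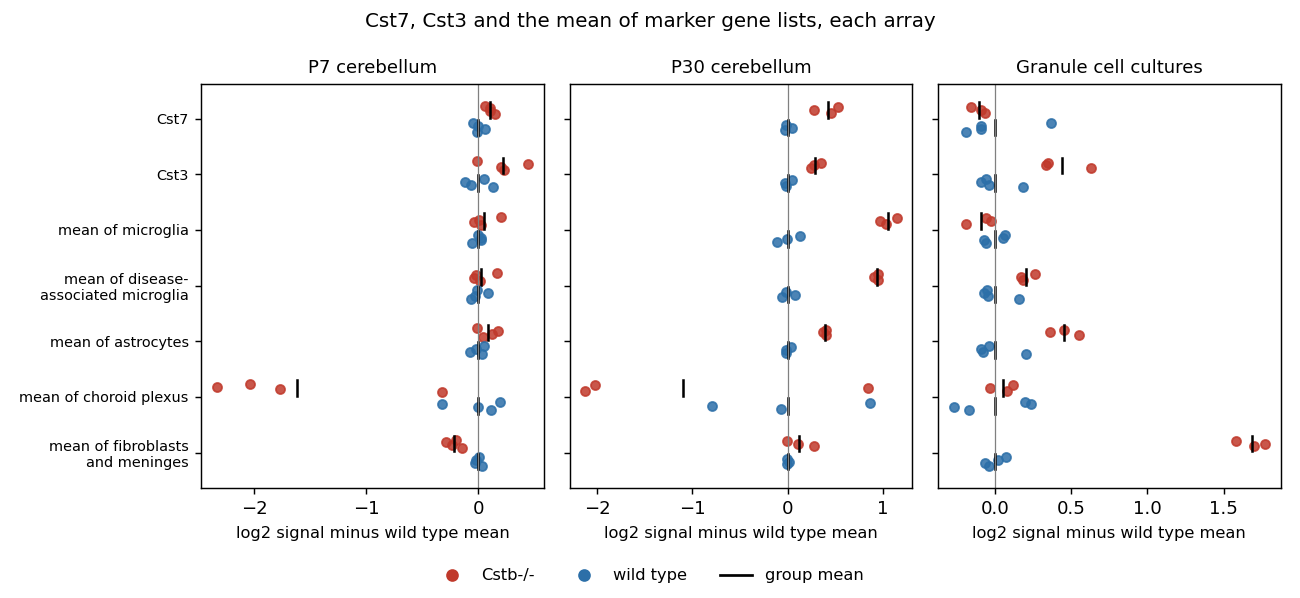
Each point is 1 array, with Cst7, Cst3 and the mean of each list of cell type markers as log2 signal minus the wild type mean on the horizontal axis, whose range differs between the panels, and black bars are group means. At P30 the microglial mean lies between 0.97 and 1.14 on the Cstb-/- arrays, while the choroid plexus mean is spread from -2.12 to 0.84 there, and in the cultures the mean of fibroblasts and meninges lies between 1.58 and 1.77.

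Of the other lists, oligodendrocyte markers were higher at P7 in 8 of 9 genes with a median of 0.49 and no call in the main fit. With the methods' t-test corrected over probe sets past the fold, 5 were called at P7. With labelled sex as a covariate 2 were called, and in 1 fit over all 21 arrays 1. In the cultures 2 of 9 were higher and 7 lower, with a median of -0.19, and Olig2, a transcription factor of the lineage, was called against that direction (1.00, limma adjusted p = 0.00810). Olig2 missed the threshold in 9 of 14 alternatives, among them leaving out any 1 of the culture arrays except wild type array 4. Markers of granule neurons, Purkinje cells and endothelial cells had medians between -0.10 and 0.17. The granule cell cadherin Fat2 in the cultures was the 1 call among them in the main fit (-0.62). The granule neuron list had 5 of 9 markers higher there and a median of 0.12. The call of Fat2 was lost without Cstb-/- array 1 or 3 or wild type array 5, 7 or 8 (adjusted p up to 0.0202) and with the methods' t-test over all probe sets (0.0294). With that t-test corrected over probe sets past the fold, the call was kept. At P7 that setting called 2 granule neuron markers and 1 Purkinje cell marker, and labelled sex as a covariate called the same numbers. The authors had reported Gabra6, Pcp2 and Pvalb from these lists as raised at P7.

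The genes whose pattern over the 21 arrays was most like each member differed between members. For Cst7 they were C1qc (Pearson r 0.79), C1qa (0.78) and Mpeg1 (0.76), where Mpeg1 is a macrophage perforin. Their genotype differences at P30 were 1.76, 1.83 and 1.93, beside 0.42 for Cst7, and at P7 0.09, 0.18 and 0.27, beside 0.11. For Cst3 they were Bcan (0.87), a proteoglycan of brain matrix, Ly6h (0.86) and Drap1 (0.86), with genotype differences in the cultures of 0.37, 0.49 and 0.36, beside 0.44. For Cstb they were Defb11 (0.74), Zfp704 (0.74) and Nbeal1 (0.70), whose genotype differences were between -0.46 and -0.05 in all experiments, against -3.10 to -2.08 for the Cstb probe set. The arrays share genotype, experiment and centring, so these r values are a description only.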

How the data were processed

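Biotinylated cRNA of 21 samples had been hybridized to Affymetrix arrays. Per the methods, the authors ran RMA (version not given in the sources used here), with its background correction, quantile normalization and summary per probe set, and subtracted each probe set's median. The deposited values are these log2 signals, with a median of 0 per probe set within each experiment. The table held 45101 probe sets, 64 of them Affymetrix controls that entered no test. Groups and replicate numbers came from the sample titles. Cstb-/- was set against wild type in every experiment with limma 3.58.1 under R 4.3.3, two-sided, with Benjamini-Hochberg correction over 45037 probe sets and the thresholds of the methods. Differences between experiments were contrasts of the within-experiment differences in 1 fit over 21 arrays in 6 groups. They were called at a fold of 1.3 and an adjusted p under 0.05, with or without the cultures. The probe sets of Cstb were compared by exact permutation over arrays. Gene symbols came from the platform annotation: 34945 probe sets had 1 symbol, 932 several and 9160 none. Lists took 1 probe set per gene, the one with the lowest number, and 118 of 137 entries matched.

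The members and lists were chosen with earlier results of these data known. All members were named, and from each list up to 4 genes per experiment, by call or lowest p, and 3 genes most like Cstb, Cst3 and Cst7. Alternatives were the methods' t-test, robust variances, array weights, 1 fit over all arrays, labelled sex, the replicate block, single arrays left out and averaging the probe sets of each gene. After seeing the data, P7 Cstb-/- array 5 and wild type array 3 were also left out together, and single arrays from the comparison of the Cstb probe sets. The test was checked on simulated data. The methods give 5 arrays per genotype for P7 and for the cultures. They state that 1 P7 array of each genotype and 1 Cstb-/- culture array did not enter the authors' final analysis. Their quality control included a principal component analysis of whether arrays of a genotype grouped together. Whether leaving arrays out narrowed the spread within genotypes was not tested. The cultures read here had 3 Cstb-/- and 4 wild type arrays, fewer than the methods leave for either genotype. The sources used here give no reason for this. The arrays not listed above were not analysed here. Precision is limited by the few arrays. The limma p-values set a difference against the spread between arrays, estimated in part over all probe sets. The permutation p-values rank a difference among those from relabelled arrays. Python 3.11.15, pandas 2.3.3 and matplotlib 3.10.9 drew the figures.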

Additional observations from a re-analysis of the deposited data

Results flagged for a closer look

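Of 21 sets of 4 arrays (7 member probe sets in P7 Cstb-/-, P7 wild type and wild type culture arrays), 2 held an array far from the others by Dixon's test, where chance flags about 1 in 20. For Cst6 at P7, Cstb-/- array 3 lay at 0.46 above the wild type mean, with the other 3 arrays between 0.14 and 0.17. For Cst7 in the cultures, wild type array 8 lay at 0.37, with the other 3 between -0.19 and -0.09, and 3 of the 7 arrays there held the exact deposited value 0.

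The genotype difference was called as unequal between experiments in 4 cases. Over all probe sets, 18.7% were called between the cultures and P7, 5.04% between the cultures and P30 and 0.124% between P30 and P7. The fall of Cstb was smaller in the cultures than at P7 by 1.02 with 1422506_a_at and by 0.45 with 1422507_at, and smaller than at P30 by 0.91 with 1422507_at. For Cst7 the difference in the cultures minus that at P30 was -0.52. The causes of these differences were not tested.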

How the results depend on the processing

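With the methods' t-test over all probe sets, 1 of the Cstb probe sets was called at P7 (1422506_a_at missed at adjusted p = 0.0533) and 1 at P30 (1422507_at missed at 0.0969). With the probe sets of each gene averaged, 1 call remained in each experiment, since Cstb was then 1 entry. With any 1 array left out, 2 member probe sets were called in each experiment. With array weights, 1 member probe set differed between P30 and P7 (1422507_at, -0.44, adjusted p = 0.0348), and between the cultures and P30 1422506_a_at passed (0.66, adjusted p = 0.00724), as it did without culture Cstb-/- array 2 (0.68, adjusted p = 0.0292). With 1 array left out, 1 to 3 member probe sets differed between the cultures and P30, and the Cstb probe set difference at P7 was between -0.92 and -0.69, with an exact permutation p of 0.0571 each time, the smallest that 3 against 4 arrays allow. Beside Cstb, Cst7 at P30 was called with array weights and with the methods' t-test corrected over probe sets past the fold (adjusted p = 0.0287), and Cst3 in the cultures in 1 fit over all arrays. Signs turned with 1 array left out, without a call, for Cst10 at P7 (-0.032 to 0.11, the lowest without wild type array 2), Cst10 at P30 (-0.084 to 0.0015, the highest without Cstb-/- array 2), Cst6 in the cultures (-0.063 to 0.020, the highest without Cstb-/- array 3) and Cst7 in the cultures (-0.17 to 0.020, the highest without wild type array 8). Replicate numbers did not pair the arrays (correlations of same-numbered deviations between -0.18 and 0.17). With the replicate block 2 member probe sets were called at P7 and 2 at P30, and 2 and 49 of all probe sets. The cultures share no replicate numbers between genotypes. Over all probe sets the number called was 3 at P7 (1 to 1108, the latter with labelled sex as a covariate), 65 at P30 (1 to 226, the latter with array weights) and 1144 in the cultures (32 to 5725, the latter in 1 fit over all arrays). The causes were not tested.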
